A study of Mus musculus with 4 samples.

Results

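The 59 Rab genes described here were all genes on the array whose symbol is Rab followed by a number, among 18193 genes that had a probe set named for a single gene. A further 13 symbols with the same start were left out because they name proteins that interact with Rabs or transcripts of an opposite strand. The 59 genes had 132 probe sets, 21 of the genes having 1 and 38 having several, and the probe set with the highest average over the arrays of log2 intensity, dim values raised to the floor described below, stands for its gene. C57BL/6 mice, 8 to 10 weeks old, gave the marrow, and 4 cultures were each read on 1 array. Bone marrow macrophages (BMM) had M-CSF alone, at 100 ng/ml, for 3 days. Pre-osteoclasts (pOC), mononuclear and positive for the osteoclast stain TRAP, had the same first step of 3 days. They then had 2 days with M-CSF and RANKL, each at 100 ng/ml. Mature multinucleated osteoclasts had both cytokines for 2 more days, on plastic (mOCp) or on dentin slices, which they resorb (mOCd). BMM was thus the youngest culture, and the design does not separate RANKL from culture age. The study's title is about Cthrc1, which osteoclasts secrete, as a link between resorption and bone formation.

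Rab proteins are small GTPases that give membranes of the cell their identity. In the GTP-bound form they sit on a vesicle or organelle through prenyl groups on their carboxyl end and recruit effectors that move, tether and fuse it. Exchange factors load GTP, GTPase-activating proteins (GAPs) end the active state, and GDI proteins extract the inactive form from membranes. In osteoclasts, lysosome-related vesicles fuse with the membrane that faces bone to build the ruffled border, and Rab7 and Rab3d are among the Rabs known to act there. Bisphosphonate drugs that block farnesyl diphosphate synthase deprive Rabs of their prenyl groups.

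Values are linear signal intensities scaled by the authors so that each array has the same trimmed mean, 100.0. A value at or under the median probe set of its array, which was 12.7 in BMM and 14.5 in pOC, with 14.8 in mOCp and 15.8 in mOCd, was set to that median, called the floor. Genes were counted (as higher or as lower) where the floored intensities differed at least 2-fold and the brighter one reached the 75th percentile of its array, which lay between 77.8 and 87.0. With a single array per stage there is no test between stages, and array number is what limits precision. The guide to error is the disagreement in log2 ratio between the 2 brightest probe sets of a gene. Its SD was shrunk by a factor of √2, so that it stands for a single probe set. The shrunken SD was 0.39 for pOC against BMM over 4630 genes, 0.39 for mOCp against pOC and 0.50 for mOCd against pOC. The gap between 2 probe sets, or between 2 genes, varies more than this, by the same factor. For Rab genes the same SDs were 0.41, 0.35 and 0.40. Both probe sets read the same RNA, so this disagreement is technical and leaves out the variation between cultures, which was not measured. Intensities of different probe sets do not rank genes by abundance, and only values of the same gene are compared across arrays.

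The osteoclast markers followed the labels, and the macrophage markers did so in part. All 11 osteoclast markers were above the floor in pOC, mOCp and mOCd and 5 in BMM, with summed intensities of 255.1 in BMM and 33772 in pOC, with 52181 in mOCp and 53526 in mOCd. The 11 macrophage markers were above the floor on every array but for 1 marker in mOCd, and summed to 32577 in BMM and 11801 in pOC, with 20338 in mOCp and 16703 in mOCd. Of them, 9 were counted as lower in pOC than in BMM, and 5 as higher in mOCp than in pOC. Csf1r and Cd68, not counted in pOC against BMM, gave 4898.6 and 5096.2 of the pOC sum. The 7 neutrophil markers summed to between 310.6 and 1859, with the lowest sum in BMM and the highest in mOCp. Stromal markers summed to between 53.3 and 259.7, with Dcn alone at 196.1 in pOC, against 8.8 in BMM. The 4 megakaryocyte and platelet markers summed to between 1330.1 and 2509.6, lowest in mOCd and highest in mOCp. Of these sums Pf4 alone gave 1236.7 in mOCd and 2370.0 in mOCp. The dendritic and mast cell list reached at most 152, the B, T and NK cell list 44.9 and the erythroid list 29.5. Signal for fewer cells of a type and for less RNA per cell cannot be told apart in these bulk cultures. The 3′ to 5′ log2 signal ratio of the transferrin receptor control was 1.70 in mOCd, against 0.84 to 1.01 on the other arrays.

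Of the 59 Rab genes, 40 were above the floor on all 4 arrays, 10 on some of them and 9 on none. The 9 at or under the floor throughout were Rab17, Rab25, Rab26, Rab30, Rab37, Rab39b, Rab3c, Rab44 and Rab9b, so no change of theirs could be measured. In all, 12 genes were counted in at least 1 of 5 comparisons, which is 20.3% of the 59, against 21.2% of all genes. Of genes that reached the 75th percentile on at least 1 array, 12 of 36 Rab genes (33.3%) were counted, against 49.5% of all such genes. They were Rab38, Rab34, Rab2b, Rab31, Rab13, Rab12 and Rab4a, each counted as higher somewhere, Rab7b, Rab8b, Rab28 and Rab3d, each counted as lower, and Rab3a, counted in both directions. Comparisons that share an array (BMM, pOC, mOCp or mOCd) share its error.

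**Figure D1:**
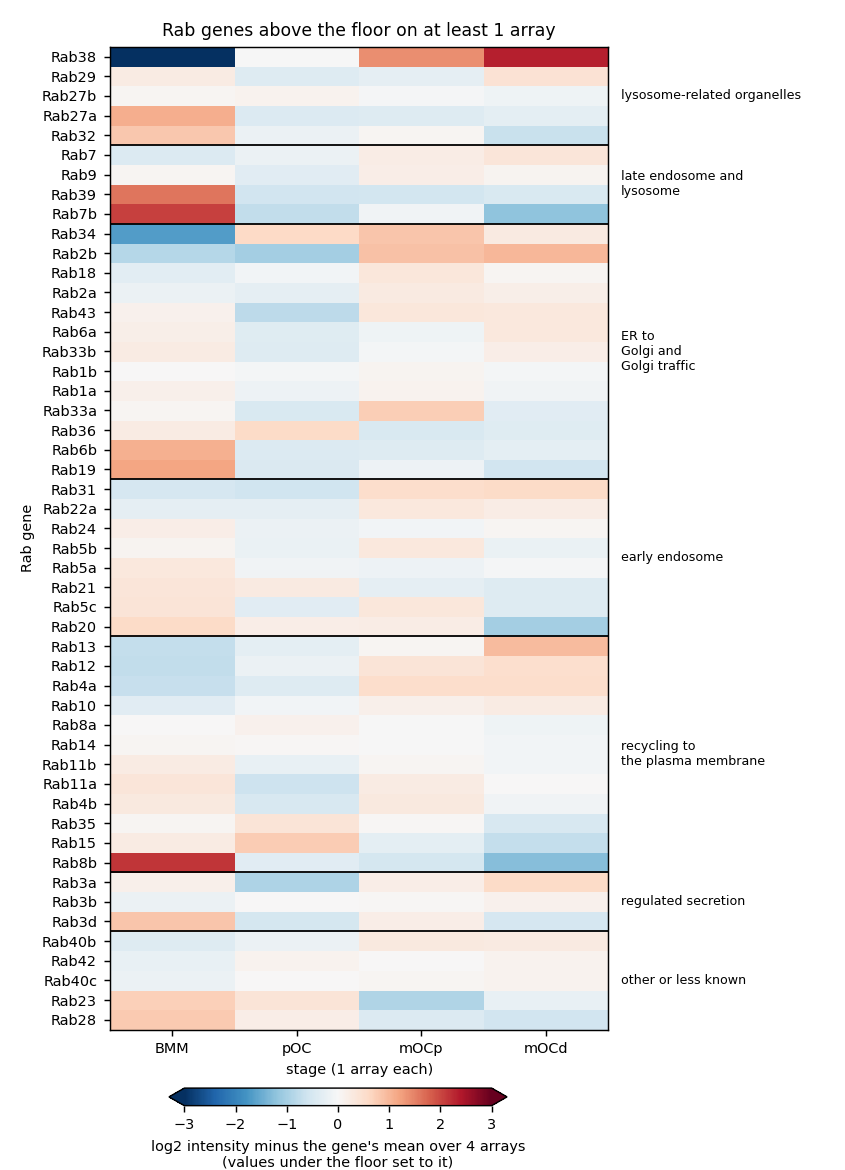
Log2 intensity of the 50 Rab genes above the floor on at least 1 array, relative to each gene's mean over the 4 arrays, with genes in rows grouped by role and stages in columns (1 array each). Rab38 runs from dark blue in BMM to dark red in mOCd, Rab7b and Rab8b are dark red in BMM only, and most rows are pale.

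Lysosome-related organelles are compartments such as melanosomes and lytic granules, and Rab38 and its relative Rab32 deliver cargo to them. Rab38 had intensities of 24.1 in BMM and 310.8 in pOC, with 821.8 in mOCp and 1579.1 in mOCd. It was brighter at each later stage and brighter on dentin than on plastic. The ratio was 12.9-fold for pOC over BMM, 2.64-fold for mOCp over pOC, 5.08-fold for mOCd over pOC and 34.1-fold for mOCp over BMM. The probe set used is of a kind (_x_at) that can hold probes shared with other transcripts, but the other probe set of Rab38 read 11.3, 348.8, 767.2 and 1468.3 at the same stages. Its BMM value lies under the floor, and its log2 ratio was at least 4.78 for pOC over BMM, against 3.69 on the probe set used. On dentin against plastic the log2 ratio was 0.94 on both probe sets, short of 2-fold, and it passed 2-fold with spike-in scaling. The count for mOCp over pOC was lost with that scaling. Melanocytes are the cells in which Rab38 is best known, and of 5 melanocyte markers Mlana, Tyr, Dct and Tyrp1 were at or under the floor on all arrays and Pmel reached 16.5 in mOCp alone.

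Rab32 went the other way from Rab38 in pOC. Its intensity was 750.0 in BMM and 378.8 in pOC, with 448.7 in mOCp and 269.9 in mOCd, the highest value being in macrophages. The ratio of 1.98-fold lower in pOC than in BMM falls just short of the count. The difference between the log2 ratios of Rab38 and Rab32 was 4.67 for pOC over BMM and 2.83 for mOCd over pOC, larger than the technical disagreement between probe sets. Rab29, a lysosome-linked Rab related to both, was 337.2 in BMM and 216.0 in pOC, with 234.3 in mOCp and 384.9 in mOCd and was not counted. Rab27a, a Rab of lytic granules and melanosomes, exceeded the floor in BMM alone (41.0), and Rab27b stayed between 21.8 and 25.5 on all arrays, so both were dim throughout.

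Rab7 carries late endosomes to fusion with lysosomes, and Rab7b acts between late endosomes and the Golgi. Rab7 read 1865.5 in BMM and 2177.7 in pOC, with 2897.0 in mOCp and 3194.8 in mOCd, within 1.71-fold over the 4 arrays. Its other probe set read 1012.4, 1226.4, 1578.9 and 1240.0 in stage order, and so was lower, not higher, on dentin than on plastic. Rab7b read 1221.1 in BMM and 177.9 in pOC, with 274.9 in mOCp and 128.2 in mOCd. The macrophage value stood far above the other 3, and the plastic value was above the dentin value. Rab7b was 6.86-fold lower in pOC than in BMM and 2.14-fold lower in mOCd than in mOCp. Its other probe sets had log2 ratios of −3.74 and −1.36 for pOC over BMM and of −1.11 and, with its dentin value under the floor, −0.70 or lower for mOCd over mOCp. The count for mOCd against mOCp was lost with spike-in scaling and with the mean over probe sets. Of the 11 macrophage markers, 9 were counted as lower in pOC than in BMM and 5 as lower in mOCd than in mOCp, so Rab7b moved with that list, whose part in the result was not tested. Rab9, which returns receptors from late endosomes to the Golgi, stayed between 238.6 and 342.5. Rab39, a Rab of phagosomes and endosomes, read 65.6 in BMM and lay under the floor elsewhere, at least 4.52-fold lower in pOC, but its BMM value was too dim to be counted.

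**Figure D2:**
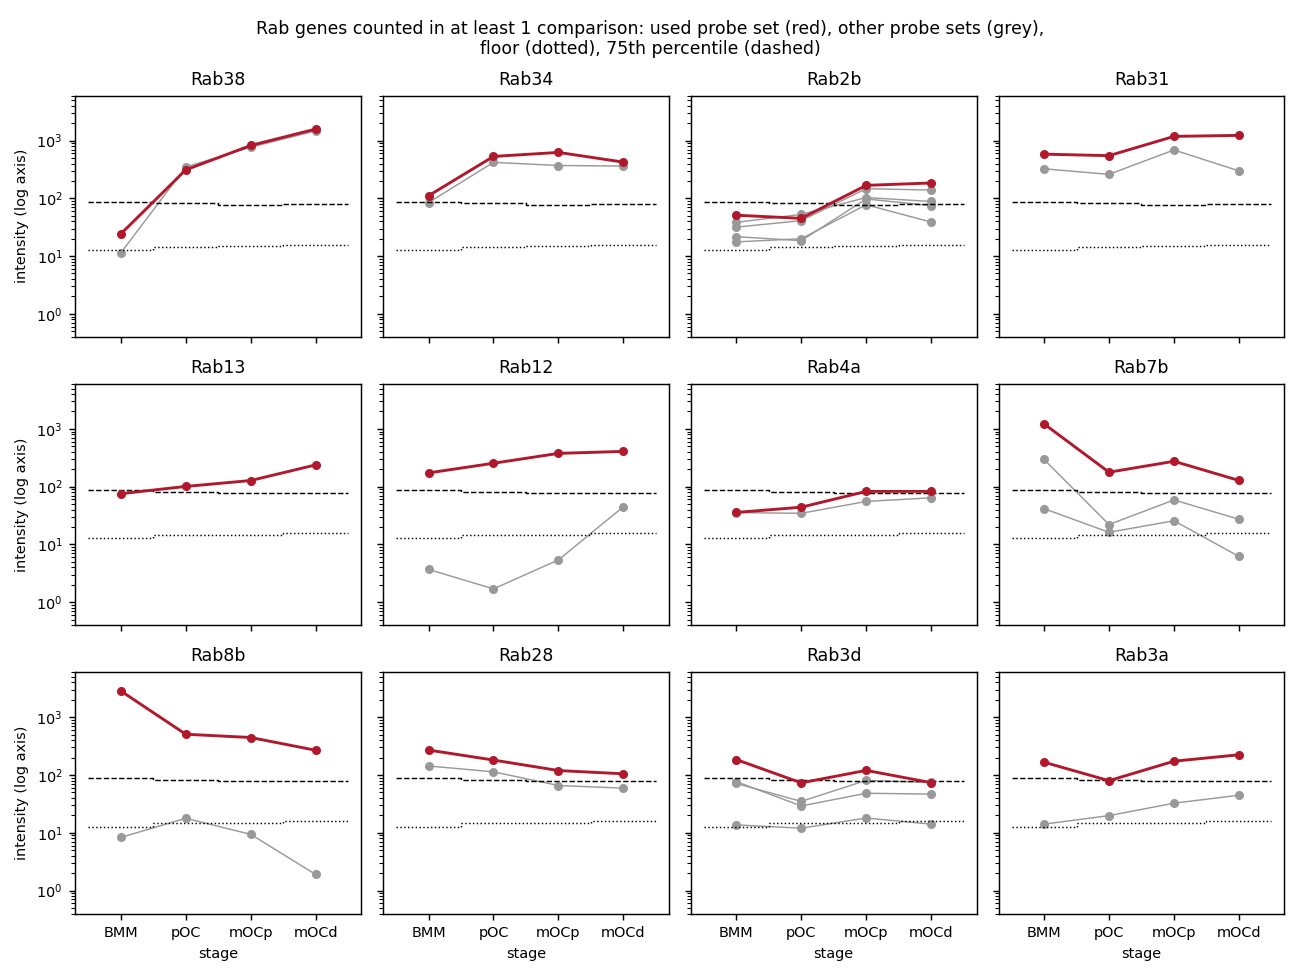
Intensity (log axis) of the 12 Rab genes counted in at least 1 comparison, by stage, with the probe set used in red, other probe sets of the gene in grey, and the floor and 75th percentile of each array as dotted and dashed lines. Both probe sets of Rab34 run together, and those of Rab38 do so except in BMM (24.1 and 11.3), whereas the second probe set of Rab8b lies near the floor.

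Of the 14 Rabs of the Golgi and early secretory pathway, 2 (Rab34 and Rab2b) were counted in at least 1 comparison, against 21.2% of all genes. Rab34, a Golgi-located Rab that positions lysosomes, had intensities of 110.8 in BMM and 530.9 in pOC, with 623.5 in mOCp and 423.0 in mOCd. The step lay between macrophages and pre-osteoclasts, and the 3 RANKL cultures were all above BMM. It was 4.79-fold higher in pOC than in BMM and 5.63-fold higher in mOCp than in BMM, and its other probe set gave log2 ratios of 2.31 and 2.13 against 2.26 and 2.49. Rab2b, like Rab2a a Rab of the early secretory pathway, read 51.0 in BMM and 45.0 in pOC, with 167.6 in mOCp and 184.4 in mOCd. Its step came later, both mature cultures being above both earlier stages, at 3.72-fold for mOCp over pOC and 4.10-fold for mOCd over pOC. All 4 other probe sets of Rab2b were also higher, by log2 ratios of 0.97 to 2.40 for mOCp over pOC and 0.74 to 2.01 for mOCd over pOC. Rab2a changed little on the probe set used, with 1192.6 in BMM and 1117.6 in pOC, with 1622.6 in mOCp and 1531.1 in mOCd. Its other probe sets above the floor on all arrays varied more. Their log2 ratios were −0.38 to 0.92 for mOCp over pOC, against 0.54, and −1.42 to 0.19 for mOCp over BMM, against 0.44.

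Promoter windows from RefSeq (GRCm38.p6), 250 bases before and 50 after a gene's start, were found for 48 of the 59 genes and for 9 of the 12 that were counted. They were searched on both strands for motifs of factors known from the osteoclast lineage: CACGTG and TCATGTG (E-box and M-box, bound by MITF and its relatives), TGANTCA (AP-1), GAGGAAG (PU.1) and GGAAAN (an NFAT core). The windows below are shown because they are those of the counted genes that hold one of these motifs other than the very common NFAT core. Capitals mark the motifs. Rab34 lies at chr11:78188177-78188476 on the + strand, Rab28 at chr5:41708130-41708429 on the - strand, Rab2b at chr14:52279346-52279645 on the - strand and Rab12 at chr17:66519621-66519920 on the - strand.
Rab34: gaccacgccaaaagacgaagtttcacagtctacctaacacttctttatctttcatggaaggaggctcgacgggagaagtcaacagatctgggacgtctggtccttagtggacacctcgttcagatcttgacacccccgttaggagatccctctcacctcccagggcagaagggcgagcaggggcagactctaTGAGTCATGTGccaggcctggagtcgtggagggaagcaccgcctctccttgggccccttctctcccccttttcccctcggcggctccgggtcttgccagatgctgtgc
Rab28: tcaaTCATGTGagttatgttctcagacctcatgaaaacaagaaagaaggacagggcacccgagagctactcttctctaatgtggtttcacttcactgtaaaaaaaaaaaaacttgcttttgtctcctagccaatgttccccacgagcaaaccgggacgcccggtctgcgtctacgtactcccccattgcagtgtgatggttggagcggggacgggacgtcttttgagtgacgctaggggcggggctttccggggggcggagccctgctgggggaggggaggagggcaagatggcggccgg
Rab2b: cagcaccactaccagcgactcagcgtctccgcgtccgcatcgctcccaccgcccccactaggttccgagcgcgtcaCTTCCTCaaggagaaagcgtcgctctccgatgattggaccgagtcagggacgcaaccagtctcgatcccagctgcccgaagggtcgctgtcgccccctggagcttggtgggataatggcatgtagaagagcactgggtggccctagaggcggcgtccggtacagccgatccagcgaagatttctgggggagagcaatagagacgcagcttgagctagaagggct
Rab12: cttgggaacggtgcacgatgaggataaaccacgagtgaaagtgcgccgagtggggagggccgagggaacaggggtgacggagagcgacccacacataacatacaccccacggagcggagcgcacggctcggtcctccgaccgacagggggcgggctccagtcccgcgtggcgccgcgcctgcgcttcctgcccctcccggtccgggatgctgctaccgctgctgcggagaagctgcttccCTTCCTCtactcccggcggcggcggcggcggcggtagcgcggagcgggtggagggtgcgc
In the Rab34 window shown, an AP-1 match begins at position -58 from the start and runs into an M-box match at -54. The letters TGAGTCATGTG hold both. Rab34 has another window, at chr11:78188498-78188797 on the + strand, with no E-box, M-box, AP-1 or PU.1 match. Rab28, a gene that was lower in mature osteoclasts, also holds the M-box letters, at -246. Rab2b has the PU.1 letters on the opposite strand at -174, and Rab12 has them at -10. Over the 60 windows of Rab genes, 5% held the M-box, 5% the AP-1 and 13.3% the PU.1 letters, against 3.77%, 7.81% and 13.6% of all 32851 windows. The E-box was in 10% of Rab windows and 7.15% of all, and in none of the 12 windows of counted genes. The NFAT core was in 70% of Rab windows and 61.2% of all. A match is only a string of letters in the window.

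The other Golgi and secretory Rabs were close to level. Rab1a, needed for transport from the endoplasmic reticulum to the Golgi, read 4561.0 in BMM and 3664.5 in pOC, with 4393.1 in mOCp and 3789.0 in mOCd, within 1.25-fold over the arrays, and Rab1b stayed within 1.11-fold. Rab6a, a Golgi Rab, spanned 1.61-fold, and Rab33b, a Golgi Rab linked to autophagy, 1.57-fold. Rab18, found on lipid droplets and the endoplasmic reticulum, read 734.0 in BMM and 870.3 in pOC, with 1156.5 in mOCp and 956.5 in mOCd. Rab43, another Golgi Rab, was 64.9 in BMM and 34.0 in pOC, with 75.2 in mOCp and 73.3 in mOCd. It was over 2-fold higher in both mature cultures than in pOC but did not reach the 75th percentile of any array. Another Rab43 probe set, above the floor on all 4 arrays, gave log2 ratios over pOC of 0.46 for mOCp and 0.03 for mOCd. For pOC over BMM the signs were opposite, −0.93 on the probe set used and 0.90 on the other. Rab19, Rab33a, Rab36 and Rab6b were under the 75th percentile everywhere, with Rab19 brightest in BMM (53.3). Probe sets of Rab6b disagreed: the one used exceeded the floor in BMM alone (40.5), and another, which averaged higher without the floor, in mOCp alone (23.3).

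Early endosome Rabs receive endocytosed cargo. Rab31, which carries cargo between the Golgi and endosomes, read 581.6 in BMM and 547.7 in pOC, with 1180.0 in mOCp and 1229.7 in mOCd. Both mature cultures lay above both earlier stages, at 2.15-fold for mOCp over pOC and 2.25-fold for mOCd over pOC. The other probe set of Rab31 had a log2 ratio of 1.40 for mOCp over pOC but 0.20 for mOCd over pOC, so the dentin value rests on 1 probe set. Both counts were lost with spike-in scaling, and that for dentin also with the mean over probe sets. The 3′ to 5′ ratio of the transferrin receptor control, which was highest in mOCd, was not tested as a part of that difference. Rab22a, the closest relative of Rab31, read 245.2 in BMM and 247.1 in pOC, with 366.1 in mOCp and 344.1 in mOCd and was not counted, but its 3 other probe sets had log2 ratios of 0.95, 1.63 and 1.39 for mOCp over pOC. With the mean over probe sets in place of the brightest, Rab22a was counted as higher in both mature cultures than in pOC.

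Rab5a, Rab5c and Rab21 act at the entry to early endosomes and were not counted in any comparison. Rab5a read 959.0 in BMM and 710.1 in pOC, with 688.6 in mOCp and 744.7 in mOCd. Rab5c was 311.9 in BMM and 187.6 in pOC, with 302.5 in mOCp and 183.9 in mOCd, and Rab21 was 793.5, 742.2, 509.1 and 470.7 at the same stages. The other probe set of Rab21 read 99.0, 115.4, 57.4 and 54.9, over 2-fold lower in both mature cultures than in pOC, with log2 ratios of −1.01 for mOCp and −1.07 for mOCd. Rab20, a Rab of phagosomes and early endosomes, read 86.0 in BMM and 66.3 in pOC, with 67.1 in mOCp and 28.5 in mOCd. The dentin value was 2.35-fold below the plastic value, but the brighter one did not reach the 75th percentile. Rab24, linked to autophagy, stayed within 1.28-fold, and Rab5b, a close relative of Rab5a, within 1.44-fold.

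Of the 14 Rabs of recycling and of traffic to the plasma membrane, 4 were counted in at least 1 comparison, against 21.2% of all genes. Rab8b, which like Rab8a directs vesicles to the cell surface, read 2855.6 in BMM and 507.5 in pOC, with 445.6 in mOCp and 268.1 in mOCd. Macrophages stood far above the other cultures, and mOCd was lowest. Rab8b was 5.63-fold lower in pOC than in BMM and 6.41-fold lower in mOCp than in BMM. Its other probe set lay between 1.9 and 17.8 on all arrays, too dim to bear on this, so the result rests on 1 probe set. With the mean over probe sets its log2 ratio for pOC over BMM was −1.0 in place of −2.49, and that for mOCp over BMM −1.23 in place of −2.68. As with Rab7b, the macrophage markers moved the same way from BMM to pOC, and their part was not tested. Rab8a stayed between 680.1 and 821.6, and the log2 ratio of Rab8b minus that of Rab8a was −2.61 for pOC over BMM.

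Rab13, which brings membrane proteins to cell junctions and the surface, read 75.5 in BMM and 100.9 in pOC, with 127.7 in mOCp and 237.9 in mOCd. It was 2.36-fold higher in mOCd than in pOC and 1.86-fold higher in mOCd than in mOCp, and has 1 probe set. The count for mOCd over pOC was lost with spike-in scaling. Rab12, which routes transferrin receptor from recycling endosomes to lysosomes, was 172.9 in BMM and 254.1 in pOC, with 376.9 in mOCp and 407.7 in mOCd. No step of Rab12 reached 2-fold, while mOCp over BMM did, at 2.18-fold, a count lost with median scaling, spike-in scaling and the mean over probe sets. Rab4a, a Rab of rapid recycling, read 35.8 in BMM, 44.1 in pOC, and 82.8 in both mature cultures. It was 2.31-fold higher in mOCp than in BMM, where its other probe set gave a log2 ratio of 0.64 against 1.21. That count was lost with median scaling, spike-in scaling, the mean over probe sets and without suffixed probe sets. Its relative Rab4b was level between these stages with 383.6 in mOCp and 384.9 in BMM.

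The remaining members of that group were not counted. Rab11a, the main Rab of the recycling endosome, read 1492.1 in BMM and 762.7 in pOC, with 1374.9 in mOCp and 1180.5 in mOCd, with its low point in pOC at 1.96-fold below BMM. Its other probe set was also lower in pOC than in BMM (log2 ratio −0.82) but not higher in mOCp than in pOC (−0.15). Rab11b spanned 1.38-fold, Rab10, which moves vesicles to the cell surface, 1.49-fold and Rab35, a Rab of fast recycling, 1.81-fold. Rab14, which links the Golgi and endosomes, was the steadiest here at 2321.7 in BMM and 2272.9 in pOC, with 2209.3 in mOCp and 2082.8 in mOCd. Of its 6 other probe sets, 3 brighter ones had log2 ratios of −0.13, 0.61 and 0.25 for mOCd over mOCp, and 3 dim ones 1.06, 1.39 and 1.16, while the dim ones were also lower in pOC than in BMM. Rab15, an endosomal Rab, was dim, with at most 43.5, in pOC.

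Regulated secretion Rabs control vesicles that wait for a signal to fuse. Rab3d read 185.0 in BMM and 73.1 in pOC, with 120.1 in mOCp and 73.7 in mOCd, 2.53-fold lower in pOC than in BMM. Its 3 other probe sets had log2 ratios of −1.40, −1.03 and 0.08, the last on a probe set near the floor, so the direction held on those with signal. The count was lost with the mean over probe sets and without suffixed probe sets. Mature osteoclasts did not exceed macrophages in Rab3d, with mOCp 1.54-fold below BMM, though its other probe sets gave log2 ratios of 0.17, −0.67 and 0.39 there. Rab3a, the Rab of synaptic vesicles, read 166.5 in BMM and 79.7 in pOC, with 173.3 in mOCp and 223.7 in mOCd. It was 2.09-fold lower in pOC than in BMM, 2.17-fold higher in mOCp than in pOC and 2.81-fold higher in mOCd than in pOC. The probe set used is an _x_at set, and the other one read 14.1, 19.8, 32.5 and 44.6 in stage order, which agrees in direction for the mature cultures but is opposite for pOC over BMM. The count for pOC over BMM was lost under 4 of the 7 alternatives, that for mOCp over pOC under 3 and that for mOCd over pOC under 1. Of the other 5 in this group, Rab26, Rab37, Rab3c and Rab44 were under the floor and Rab3b exceeded it by 0.1 in pOC alone. Rab44 is reported as a regulator of mouse osteoclast formation, and its only probe set read 8.7 or less on every array.

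Among less studied Rabs, Rab28, known from cilia and photoreceptors, read 270.2 in BMM and 181.5 in pOC, with 119.4 in mOCp and 104.9 in mOCd. Each later stage was dimmer, and mOCp was 2.26-fold below BMM, with a log2 ratio of −1.18 on the probe set used and −1.13 on the other. Rab40c, part of a ubiquitin ligase, stayed between 254.0 and 309.6. Rab23, an inhibitor of hedgehog signalling, was dim, with 56.6 in BMM and 45.2 in pOC, with 18.4 in mOCp and 29.7 in mOCd. Rab40b reached at most 20.3, in mOCp, and Rab42 exceeded the floor in pOC alone, at 16.0.

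Read by comparison, 2 Rab genes were counted as higher and 4 as lower in pOC than in BMM, which is 3.39% and 6.78% of the 59, against 4.45% and 5.25% of all genes. For mOCp against pOC the counts were 4 higher and 0 lower, 6.78% and 0% of members, against 3.48% and 4.51% of all genes. For mOCd against pOC they were 5 higher and 0 lower, 8.47% and 0%, against 4.28% and 4.87%. For mOCd against mOCp, 0 were higher and 1 lower, 0% and 1.69%, against 0.819% and 0.967%. For mOCp against BMM, 6 were higher and 3 lower, 10.2% and 5.08%, against 6.91% and 7.94%. Among genes whose brighter value reached the 75th percentile, the Rab shares for higher and lower were 6.06% and 12.1% of 33 for pOC against BMM, against 11.1% and 13.2% of all such genes. For mOCp against pOC they were 11.1% and 0% of 36, against 8.8% and 11.4%, and for mOCd against pOC 14.7% and 0% of 34, against 10.8% and 12.3%. For mOCd against mOCp they were 0% and 2.78% of 36, against 2.15% and 2.55%, and for mOCp against BMM 16.7% and 8.33% of 36, against 16.9% and 19.4%. Each of these Rab shares rests on 0 to 6 genes. Between pOC and the mature cultures the 0 counted as lower depends on the scaling: brought to the same spike-in signal, Rab28 was counted as lower in mOCp than in pOC, and Rab28, Rab35 and Rab8b as lower in mOCd than in pOC.

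**Figure D3:**
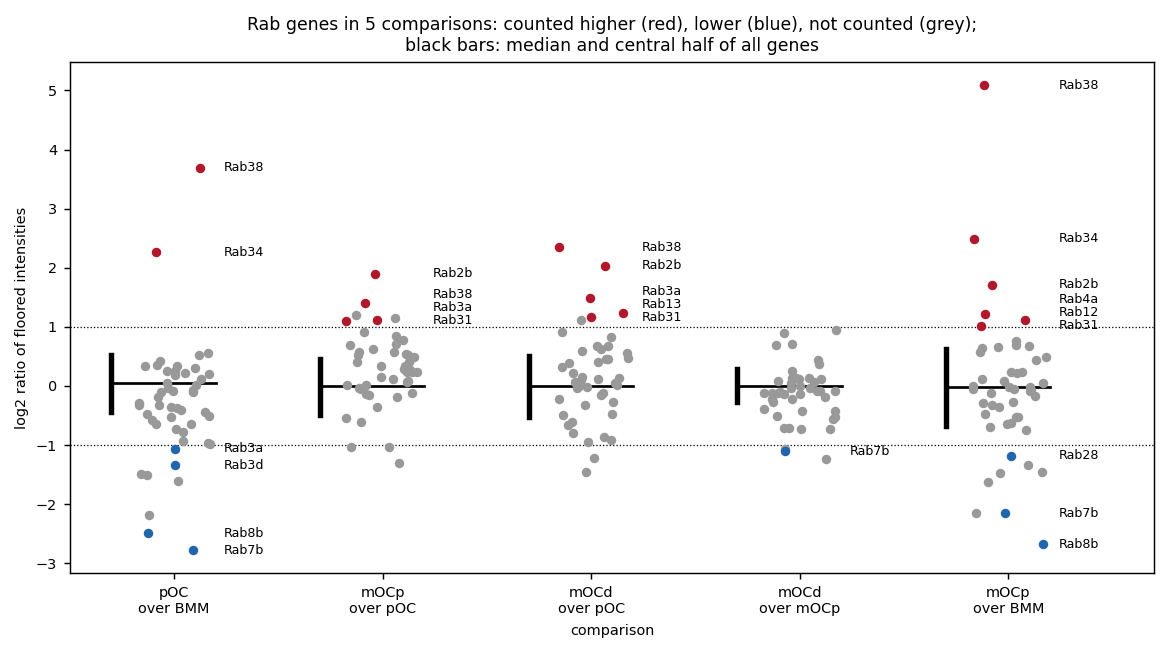
Log2 ratio of floored intensities for each Rab gene above the floor on at least 1 of the arrays compared, in 5 comparisons, with genes counted as higher in red, as lower in blue and others in grey, and the median and interquartile range of the 10409 genes as black bars. Rab38 stands at 3.69 for pOC over BMM and 5.09 for mOCp over BMM, and most grey points lie between the dotted lines at 2-fold.

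The median over the 45 Rab genes whose mean log2 intensity reached the mean floor was −0.32 for pOC over BMM, against 0.05 over 10409 genes chosen the same way. It was 0.28 for mOCp over pOC, against −0.01, and 0.07 for mOCd over pOC, against 0.00. For mOCp over BMM it was −0.04, against −0.01, and for mOCd over mOCp −0.10, against 0.00. The values for pOC over BMM and mOCp over pOC share the pOC array. The interquartile range of the Rab genes was −0.65 to 0.18 for pOC over BMM and 0 to 0.63 for mOCp over pOC. Relative to all genes, the Rab median was lower by −0.37 for pOC over BMM and higher by 0.28 for mOCp over pOC, and under scaling by the median, by quantiles or by spike-ins these differences were −0.39, −0.30 and −0.37, and 0.28, 0.24 and 0.29. The bare median for mOCp over pOC turned to −0.15 with spike-ins and that for mOCd over pOC to −0.18. Among genes with a mean at or above the mean 75th percentile, 22 of 34 Rab genes (64.7%) kept all 4 values within 2-fold, against 52.2% of 6610 genes. This holds for the probe set used: other probe sets of some of the 22, such as those of Rab21 and Rab22a, spanned over 2-fold.

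Related Rab genes often differed from each other, as the pairs in the plot of related genes show. These pairs were put together by relatedness with the values known, so they describe and do not test. In 3 pairs the gap for pOC over BMM was above 2 on the log2 scale: 4.67 for Rab38 and Rab32, −3.0 for Rab7b and Rab7, and −2.61 for Rab8b and Rab8a. For mOCp over pOC the gap was 1.36 for Rab2b and Rab2a and 0.54 for Rab31 and Rab22a. Rab1a and Rab1b differed by −0.25 for pOC over BMM and 0.12 for mOCp over pOC, within the probe-set disagreement.

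**Figure D4:**
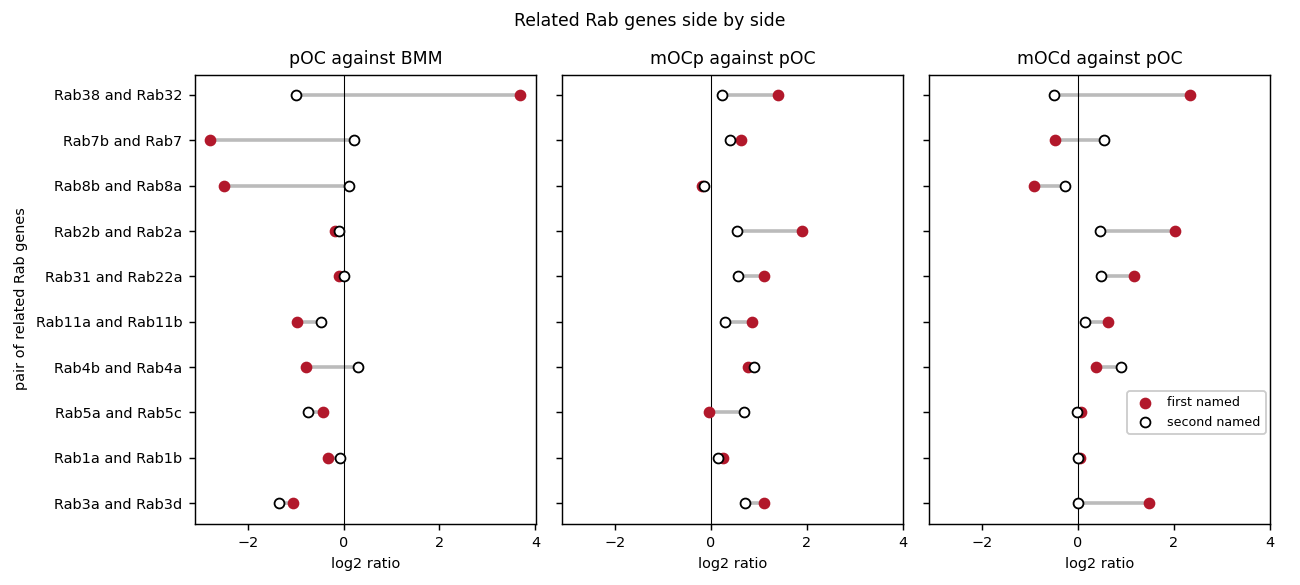
Log2 ratios of 10 pairs of related Rab genes in 3 comparisons, with the first named gene as a filled point and the second as an open point, joined by a line. The longest lines are those of Rab38 and Rab32, Rab7b and Rab7, and Rab8b and Rab8a for pOC against BMM.

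Genes that act on Rabs were examined as lists. Of 8 genes of Rab prenylation and membrane extraction, Fdps, the farnesyl diphosphate synthase, read 1519.0 in BMM and 231.6 in pOC, with 633.8 in mOCp and 488.4 in mOCd, 6.56-fold lower in pOC than in BMM and 2.74-fold higher in mOCp than in pOC. Rabac1, a receptor for prenylated Rabs, was 598.2 in BMM and 594.6 in pOC, with 1053.0 in mOCp and 1246.1 in mOCd, 2.1-fold higher in mOCd than in pOC. With the mean over probe sets no gene of this list, and so not Fdps, was counted as higher in mOCp than in pOC. With median or spike-in scaling no gene of this list was counted as higher in mOCd than in pOC. The median log2 ratio of the list was −0.33 for pOC over BMM, 0.23 for mOCp over pOC and 0.11 for mOCd over pOC. The other 6 were not counted, among them Gdi2, which stayed between 3884.2 and 4510.7, and Rabggtb, a subunit of the enzyme that prenylates Rabs, between 463.3 and 592.1.

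The counts of the 3 further lists stand against all-gene shares of 4.45% higher and 5.25% lower for pOC against BMM, 3.48% and 4.51% for mOCp against pOC, and 4.28% and 4.87% for mOCd against pOC. Among genes whose brighter value reached the 75th percentile, the shares higher were 11.1%, 8.8% and 10.8% in the same order. Spike-in scaling moves every gene by the same amount, to an all-gene median of −0.44 for mOCp over pOC and −0.31 for mOCd over pOC, so list medians under it are read against those values. Of 36 Rab exchange factors, 2 were higher and 4 lower for pOC against BMM. With the mean over probe sets 1 was higher and 2 were lower there. For mOCp against pOC 2 were higher and 0 lower, and 0 were higher with spike-in scaling. For mOCd against pOC 5 were higher and 0 lower, and 2 were higher with spike-in scaling and 4 with the mean over probe sets. The median log2 ratio of the exchange factors was −0.03 for pOC over BMM, 0.10 for mOCp over pOC and 0.05 for mOCd over pOC. Rab3il1 and Rab3ip, related exchange factors for Rab8, differed in direction. Rab3il1 read 381.7 in BMM and 23.1 in pOC, with 18 in mOCp and 34.0 in mOCd, 16.5-fold lower in pOC than in BMM. Rab3ip read 35.9, 88.4, 200.5 and 220.0 in the same order, 2.46-fold higher in pOC than in BMM and 2.27-fold higher in mOCp than in pOC. Rin3, an exchange factor of Rab5-like Rabs, was 29.3 in BMM and 97.6 in pOC, with 161.1 in mOCp and 289.7 in mOCd, and 3.33-fold higher in pOC than in BMM. Dennd4a, Dennd4b and Dennd4c, exchange factors of Rab10, were all lower in pOC than in BMM, by 2.36-fold, 4.04-fold and 3.03-fold. As only 2 exchange factors were counted as lower with the mean over probe sets, these 3 did not all keep the count. The 2 proteins of the exchange factor shared by Rab32 and Rab38 were not counted, with Hps1 between 180.2 and 285.6 and Hps4 between 104.8 and 135.3. These 2 were picked after their values were seen.

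Of 38 GAPs, 3 were counted as higher and 1, Tbc1d9 (59.0 in pOC against 175.0 in BMM), as lower in pOC against BMM. In mOCp against pOC 4 were higher and 0 lower, and 1 was higher with spike-in scaling and 1 with the mean over probe sets. In mOCd against pOC 7 were higher and 0 lower, and 4 were higher with spike-in scaling and 4 with the mean over probe sets. For pOC over BMM the median log2 ratio of the list was −0.03, against 0.05 over all genes. The median log2 ratio was 0.31 for mOCp over pOC and 0.43 for mOCd over pOC, against −0.01 and 0.00 over all genes, and −0.13 and 0.11 with spike-in scaling. Tbc1d24 read 157.3 in BMM and 287.1 in pOC, with 666.3 in mOCp and 1199.1 in mOCd, brighter at each later stage and 4.18-fold higher in mOCd than in pOC. Sgsm3 read 20.3, 123.2, 175.7 and 364.5 in the same order, 6.07-fold higher in pOC than in BMM and 2.07-fold higher in mOCd than in mOCp. Sgsm1 lay under the floor in BMM and read 37.1 in pOC, 180.5 in mOCp and 178.7 in mOCd, 4.87-fold higher in mOCp than in pOC. Usp6nl, a GAP for Rab5, was 245.3 in pOC against 53.0 in BMM, 4.63-fold higher, and Tbc1d2b was 524.8 against 113.7, 4.62-fold higher.

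Of 40 Rab effectors, 4 were counted as higher and 3 as lower in pOC against BMM. In mOCp against pOC 5 were higher and 0 lower, and 3 were higher with spike-in scaling. In mOCd against pOC 9 were higher and 0 lower, and 5 were higher with spike-in scaling and 7 with the mean over probe sets. For pOC over BMM the median log2 ratio of the list was −0.19, against 0.05 over all genes. The median log2 ratio was 0.35 for mOCp over pOC and 0.53 for mOCd over pOC, against −0.01 and 0.00 over all genes, and −0.08 and 0.22 with spike-in scaling. Several bind Rab7. Plekhm1, whose loss causes osteopetrosis, read 345.1 in BMM and 649.3 in pOC, with 834.5 in mOCp and 1415.4 in mOCd, 2.18-fold higher in mOCd than in pOC. Vps39, a subunit of the complex that tethers late endosomes to lysosomes, was 108.7, 242.0, 459.7 and 587.6 in the same order, and Fyco1, which links late endosomes to kinesin, was 46.3, 31.4, 120.0 and 114.5. Vps39 was 2.23-fold higher in pOC than in BMM, and Fyco1 3.82-fold higher in mOCp than in pOC. Osbpl1a, another Rab7 effector, went the other way, 3.48-fold lower in pOC than in BMM.

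Other effectors serve recycling and secretion. Rab11fip5, which binds Rab11, read 381.3 in BMM and 169.7 in pOC, with 334.2 in mOCp and 289.4 in mOCd, 2.25-fold lower in pOC than in BMM, and Rufy3 was 2-fold lower in pOC than in BMM. Micall1, of recycling endosomes, read 82.5 in BMM and 175.1 in pOC, with 515.0 in mOCp and 682.1 in mOCd and was 2.12-fold higher in pOC than in BMM, 2.94-fold higher in mOCp than in pOC and 3.9-fold higher in mOCd than in pOC. Mical1, an actin-oxidising enzyme that binds Rabs, was 63.1 in BMM and 20.6 in pOC, with 103.4 in mOCp and 112.5 in mOCd, 5.02-fold higher in mOCp than in pOC. Rilpl1 and Rilpl2, which bind phosphorylated Rab8 and Rab10, were 3.23-fold and 4.31-fold higher in pOC than in BMM. Unc13d, the Rab27 effector of granule release, was 98.5 in mOCp and 120.4 in mOCd against 47.8 in pOC, while Rab27a and Rab27b themselves were dim.

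**Figure D5:**
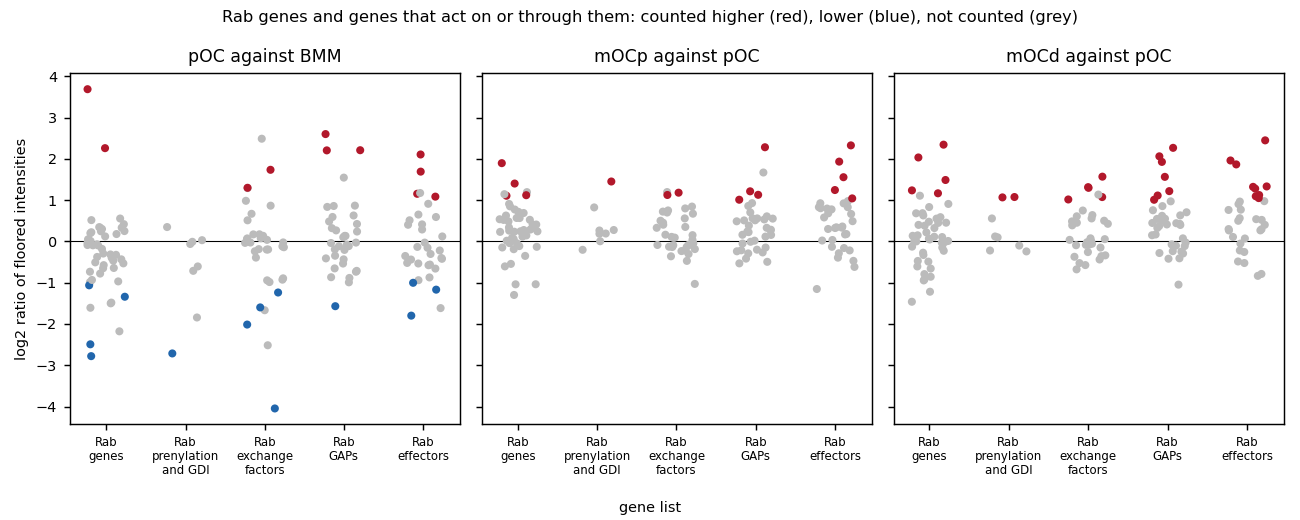
Log2 ratios of the Rab genes and of 4 lists of genes that act on or through Rabs in 3 comparisons, each point a gene above the floor on at least 1 of the arrays compared, counted as higher in red, as lower in blue and not counted in grey. In mOCp against pOC and mOCd against pOC no point of any of the 5 sets is blue.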

How the data were processed

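RNA of 4 cultures, 1 per stage, was measured on single-channel arrays. The deposited table holds linear signal intensities, made by the authors with MAS5, per the submitters' processing notes, with no version or genome build given in the sources used here. Each array had a mean of 100.0 after trimming 2% from each end, which removes differences in total mRNA. The table held 45101 probe sets, 64 of them controls; 34945 of the others carried 1 symbol in a platform annotation dated 2016, 932 several and 9160 none. All 59 Rab genes matched a RefSeq gene of the same symbol by Entrez identifier.

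From the deposited intensities, values under the 50th percentile of non-control probe sets were raised to it. The probe set whose floored log2 values averaged highest stood for its gene, with ties decided on the unfloored ones. The 5 comparisons used the ratio of floored values, counted at 2-fold with the brighter value at the 75th percentile or above. Medians used genes with a mean log2 at or above the mean floor, unselected for direction. Whether samples came from 1 animal or a pool is not stated. Alternatives were floors at the 40th and 60th percentiles, median scaling, quantile normalization, scaling to 12 spike-in probe sets, the mean over probe sets, and leaving out suffixed probe sets. Choosing probe sets on unfloored values was added after seeing the data. Python 3.11.15 with pandas 2.3.3 and numpy 2.4.6 was used, and the counting was tested on simulated data.

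Every Rab gene could be named; the rule gave values by array to counted genes and the 8 with the highest mean log2, and named list genes when counted. Values by array of Rab32, Rab29, Rab43, Rab22a, Rab20, Rab5c, Rab21 and Rab23, and the list genes Gdi2, Rabggtb, Hps1 and Hps4, go beyond it and were chosen after their values were seen; not every counted list gene is named. The members, lists and related pairs were chosen with earlier results of these data known.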

Additional observations from a re-analysis of the deposited data

How the results depend on the processing

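No paired analysis was possible because each stage has 1 array, and no array could be left out. Spike-in signal differed between arrays by −0.11 (pOC minus BMM), 0.43 (mOCp minus pOC) and 0.31 (mOCd minus pOC) on the log2 scale, and the median probe set by 0.19, 0.03 and 0.12, so shifts of that size depend on the scaling. With spike-in scaling the Rab genes counted as higher were 1 for mOCp against pOC (4 as reported), 3 for mOCd against pOC (5), 2 for mOCd against mOCp (0) and 3 for mOCp against BMM (6), and those counted as lower were 1 for mOCp against pOC (0), 3 for mOCd against pOC (0) and 0 for mOCd against mOCp (1). Median scaling gave 3 higher for mOCp against BMM and 1 lower for mOCd against pOC, and 6 lower, in place of 4, for pOC against BMM. The mean over probe sets gave 2 lower for pOC against BMM, Rab7b and Rab8b, and 0 lower for mOCd against mOCp; without suffixed probe sets 2 were lower for pOC against BMM. Without them the ratio of Rab3a for pOC over BMM reversed, to 0.49 on the log2 scale. Of 174 recomputed ratios of counted genes over the 7 alternatives, 159 moved by less than the shrunken SD of the probe-set disagreement, 14 by more and 1 changed sign. Of them 27 no longer met the count, 10 with spike-in scaling and 7 with the mean over probe sets. Of the 25 counted ratios, 13 were counted under every one of the 7 alternatives that gave a value and 12 were not. Probe sets chosen on unfloored values changed 1 Rab gene, Rab6b, and no Rab count. Rab38 and Rab34 remained counted as higher, and Rab7b and Rab8b as lower, in pOC against BMM under every alternative in which they had a value. Causes of these differences beyond the scaling or choice of probe sets were not tested. Dim probe sets, such as those of Rab27a, Rab39 and Rab44, are limited by background.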
